A study of Mus musculus with 21 samples.

Results

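Peroxide and superoxide are by-products of respiration, and the antioxidant enzymes remove them. The 8 enzyme genes Sod1, Sod2, Prdx1, Prdx2, Prdx3, Prdx5, Prdx6 and Gpx4 were listed by gene symbol. All 8 were found among the 5544 genes with deposited values for the mouse cortex. These are only a part of the genes of the mouse, and the shares of all genes given below are shares of this part. They were grouped by where the protein is found in the cell. The cytosolic enzymes were Sod1, Prdx1, Prdx2 and Prdx6, the mitochondrial enzymes were Sod2 and Prdx3, and Prdx5 and Gpx4 have forms in several compartments.

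Male C57Bl/6J mice, 12 weeks of age, received either high-frequency head impact (HF-HI) or a sham procedure. HF-HI mice took 5 impacts per day for 6 days, 30 in all, under isoflurane, while sham mice were anesthetized and handled in the same way and took 0 impacts. Cortex was collected 24 h after the last session from 10 sham and 11 HF-HI mice, with 1 RNA library per mouse. Values are on a log2 scale, after size normalization and variance stabilization. The read depth behind them is not known in total. As a multiple of the median library, estimated from steps in the values, it lay between 0.580 and 1.26 for sham and between 0.548 and 1.64 for HF-HI.

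Superoxide dismutases turn superoxide into hydrogen peroxide, in the cytosol by the copper and zinc enzyme Sod1 and in the mitochondrial matrix by the manganese enzyme Sod2. Peroxiredoxins then reduce the peroxide through a reactive cysteine, which thioredoxin restores in most of them and glutathione in Prdx6. Gpx4 is a selenium-containing glutathione peroxidase that reduces lipid peroxides within membranes and holds back ferroptosis, a form of cell death driven by such peroxides. Neurons have a high oxygen use and membranes rich in polyunsaturated lipids, for which these enzymes are well known in the brain.

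The comparison of HF-HI with sham asks which of these transcripts differed a day after repeated head impact. Of the 8 enzymes, 6 had a Benjamini-Hochberg adjusted p under 0.05 in limma's moderated test over all genes, where 66.3% of the 5544 genes tested did. Sod2 and Prdx6 were higher in HF-HI, a direction taken by 32.6% of all genes, and Prdx1, Prdx2, Prdx5 and Gpx4 were lower, as were 33.6%. Sod1 and Prdx3 did not pass. The share of the enzymes that passed was thus close to that of the table, and it is not particular to them. Their median log2 difference was -0.15, against -0.0086 over all genes, and Gpx4 had the largest difference of the 8. Because the tissue is a mixture of cells, fewer cells of a type and less RNA per cell cannot be told apart.

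**Figure D1:**
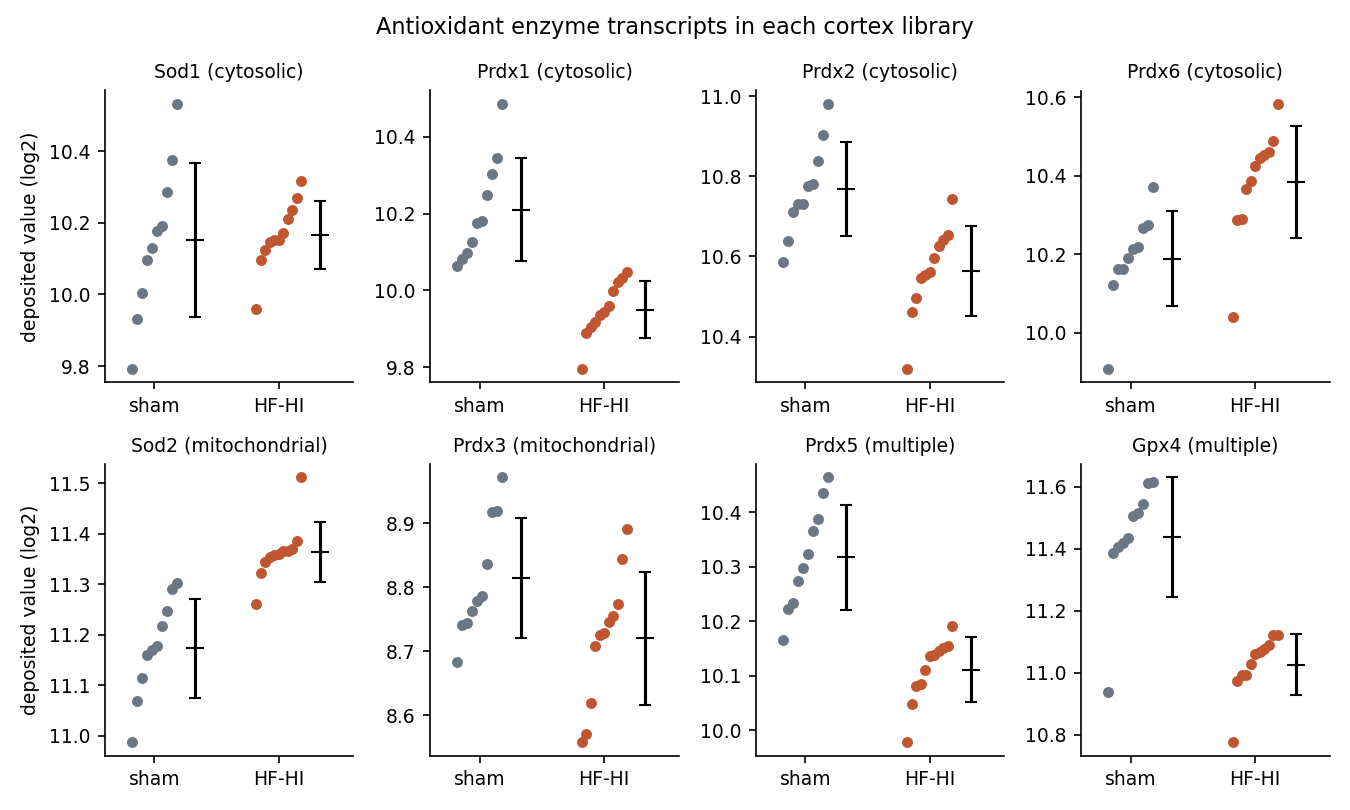
Deposited log2 value of each enzyme in the 10 sham and 11 HF-HI cortex libraries, each point being 1 mouse, sorted by value within its group, with the mean and SD as a bar beside it. The compartment is given in each title; the Prdx1 values of the groups do not overlap, and sham replicate 10 lies at 10.94 for Gpx4, below the other sham libraries.

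Gpx4 (ENSMUSG00000075706, chr10:80047166-80056439, plus strand, GRCm38) had values from 10.94 to 11.61 among sham mice (median 11.47) and from 10.78 to 11.12 among HF-HI mice (median 11.06). All sham libraries but replicate 10 lay above every HF-HI library, and replicate 10 lay within the HF-HI range. The mean was 11.44 ± 0.19 for sham (SD, n = 10) and 11.03 ± 0.098 for HF-HI (SD, n = 11). Gpx4 thus fell by 0.41 on the log2 scale (95% interval -0.54 to -0.28), a level 24.8% lower, with all 11 HF-HI libraries below the sham median (limma with Benjamini-Hochberg adjustment, adjusted p = 5.3e-06). Only 1.03% of the genes of the table had a lower difference. Without sham replicate 10 the difference was -0.47. Its exons have a GC content of 59.9%, above that of 97.6% of genes. Library values followed GC content with a slope of -0.11 ± 0.078 log2 units per 10% GC for sham libraries (SD, n = 10). For HF-HI libraries the slope was 0.096 ± 0.060 (SD, n = 11), so that GC-rich genes tended upward in HF-HI. As this trend went with the group, a technical GC bias and a change of GC-rich transcripts after impact cannot be told apart. Values with a trend removed are therefore alternatives and not corrected values. The Gpx4 difference was -0.70 with each library's GC trend removed, -0.52 with the length trend removed as well, and -0.44 with the GC and length trends of the principal transcript removed. The forms of Gpx4 that go to the cytosol, mitochondria and nucleus come from alternative starts of this gene, and the single value per gene does not separate them.

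Prdx1 (ENSMUSG00000028691, chr4:116685544-116700822, plus strand) encodes an abundant cytosolic peroxiredoxin. Its values ran from 10.06 to 10.49 among sham mice (median 10.18) and from 9.80 to 10.05 among HF-HI mice (median 9.94). Every HF-HI library lay below every sham library, which was so of 1 of the 8 enzymes, while 13.5% of all genes had groups that did not overlap. The mean was 10.21 ± 0.13 for sham (SD, n = 10) and 9.95 ± 0.074 for HF-HI (SD, n = 11), a fall of 16.5%, or -0.26 on the log2 scale (95% interval -0.36 to -0.17; limma with Benjamini-Hochberg adjustment, adjusted p = 3.6e-05). Removing each library's GC trend left -0.18, and removing the trends on GC content and exonic length left -0.10, close to the threshold, with an adjusted p of 0.0452 from limma with Benjamini-Hochberg adjustment. Over 12 alternatives, leaving aside those that omit a library, this p ran from 4.1e-06 to 0.0452.

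Prdx2 (ENSMUSG00000005161, chr8:84969587-84974834, plus strand) encodes the other typical cytosolic peroxiredoxin, known for its high level in neurons and red blood cells. Values ran from 10.59 to 10.98 among sham mice (median 10.75) and from 10.32 to 10.74 among HF-HI mice (median 10.56). The groups overlapped, with 6 of the 11 HF-HI libraries below the lowest sham library and all 11 below the sham median. HF-HI replicate 11 was the lowest and replicate 1 the highest of its group. Prdx2 fell by 0.20 on the log2 scale (95% interval -0.30 to -0.10), from 10.77 ± 0.12 (SD, n = 10) to 10.56 ± 0.11 (SD, n = 11), or by 13.2% (limma with Benjamini-Hochberg adjustment, adjusted p = 8.5e-04). Over the 4 trend removals it ran from -0.13 to -0.28. The gene overlaps 351 bases of Junb, an immediate early gene on the opposite strand, whose log2 difference was 0.97. The libraries are stranded, but whether reads were counted by strand is not given in the sources used here, and the part of Junb reads in the Prdx2 value was not tested. The same limit holds for other overlaps on the opposite strand. Prdx2 also overlaps 181 bases of Rnaseh2a, Sod1 overlaps 650 bases of Scaf4, and Prdx5 overlaps 409 bases of Trmt112. These overlapping genes have no value in the table. Junb was named after its position and value were seen, and the others after their positions were seen.

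Prdx5 (ENSMUSG00000024953, chr19:6906697-6910106, minus strand) is found in the cytosol, mitochondria and peroxisomes. Its values ran from 10.17 to 10.46 among sham mice (median 10.31) and from 9.98 to 10.19 among HF-HI mice (median 10.14). The groups nearly parted, with 10 of the 11 HF-HI libraries below the lowest sham library and only HF-HI replicate 10 within the sham range. The mean moved from 10.32 ± 0.097 (SD, n = 10) to 10.11 ± 0.060 (SD, n = 11), a log2 difference of -0.21 (95% interval -0.28 to -0.13) and a level 13.3% lower (limma with Benjamini-Hochberg adjustment, adjusted p = 3.3e-05). Like Gpx4, Prdx5 is GC-rich, at 56.3%. Its difference was -0.40 with the GC trend removed, -0.26 with the length trend removed as well, and -0.27 with the GC and length trends of the principal transcript removed. HF-HI replicate 11 had the lowest value of its group for Prdx2, Prdx5 and Gpx4 alike.

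Against these falls, a cytosolic and a mitochondrial enzyme rose. Prdx6 (ENSMUSG00000026701, chr1:161240112-161251219, minus strand), which also has a phospholipase activity, ran from 9.91 to 10.37 among sham mice (median 10.20) and from 10.04 to 10.58 among HF-HI mice (median 10.43). Of the HF-HI libraries 7 lay above the highest sham library, and replicate 9 was the only one below the sham median. The mean rose from 10.19 ± 0.12 (SD, n = 10) to 10.38 ± 0.14 (SD, n = 11), a log2 difference of 0.20 (95% interval 0.081 to 0.31) and a level 14.5% higher (limma with Benjamini-Hochberg adjustment, adjusted p = 0.0037). The annotation holds a close copy, Prdx6b, and a pseudogene, Prdx6-ps2, with which the counting of reads per transcript may have shared reads. The same may hold for Gpx4 and Prdx2, for which it lists the pseudogenes Gpx4-ps2 and Prdx2-rs3.

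Sod2 (ENSMUSG00000006818, chr17:13006846-13040063, plus strand) had values from 10.99 to 11.30 among sham mice (median 11.17) and from 11.26 to 11.51 among HF-HI mice (median 11.36). All 11 HF-HI libraries lay above the sham median and 10 above the highest sham library, with replicate 9 the highest and replicate 8 the lowest. Sod2 rose from 11.17 ± 0.098 (SD, n = 10) to 11.36 ± 0.059 (SD, n = 11), by 14.1% or 0.19 on the log2 scale (95% interval 0.12 to 0.27; limma with Benjamini-Hochberg adjustment, adjusted p = 8.4e-05). The difference was 0.18 with GC and length trends removed and 0.30 with the GC trend of the principal transcript removed, the ends of its range over the 4 trend removals.

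The remaining pair had no called difference. Sod1 (ENSMUSG00000022982, chr16:90220754-90226329, plus strand) ran from 9.79 to 10.53 in sham and from 9.96 to 10.32 in HF-HI, with medians of 10.15 in both. All HF-HI libraries lay within the sham range, whose ends were replicates 8 and 4. The log2 difference was 0.015, with a 95% interval of -0.12 to 0.15 (limma with Benjamini-Hochberg adjustment, adjusted p = 0.853). The processing mattered for Sod1 too. The difference was -0.080 with the GC trend of the principal transcript removed, and 0.19, past the threshold, with its length trend removed as well. Prdx3 (ENSMUSG00000024997, chr19:60864051-60874556, minus strand), the peroxiredoxin of the mitochondrial matrix, ran from 8.68 to 8.97 among sham mice (median 8.78) and from 8.56 to 8.89 among HF-HI mice (median 8.73). The groups overlapped widely, with 8 of the 11 HF-HI libraries inside the sham range. Its log2 difference was -0.094 (95% interval -0.18 to -0.0033; limma with Benjamini-Hochberg adjustment, adjusted p = 0.0628). The direction of Prdx3 depended on the processing. It was -0.15 after centring each library on its median and likewise -0.15 with relative depth as a covariate. With the GC and length trends removed it was 0.14. Those adjusted p values were 0.0059, 0.0012 and 0.0179 from limma with Benjamini-Hochberg adjustment, within a range of 0.0012 to 0.537 over 11 alternatives. Prdx3 also passed when sham replicate 5, HF-HI replicate 6 or HF-HI replicate 7 was left out, at -0.11 each.

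**Figure D2:**
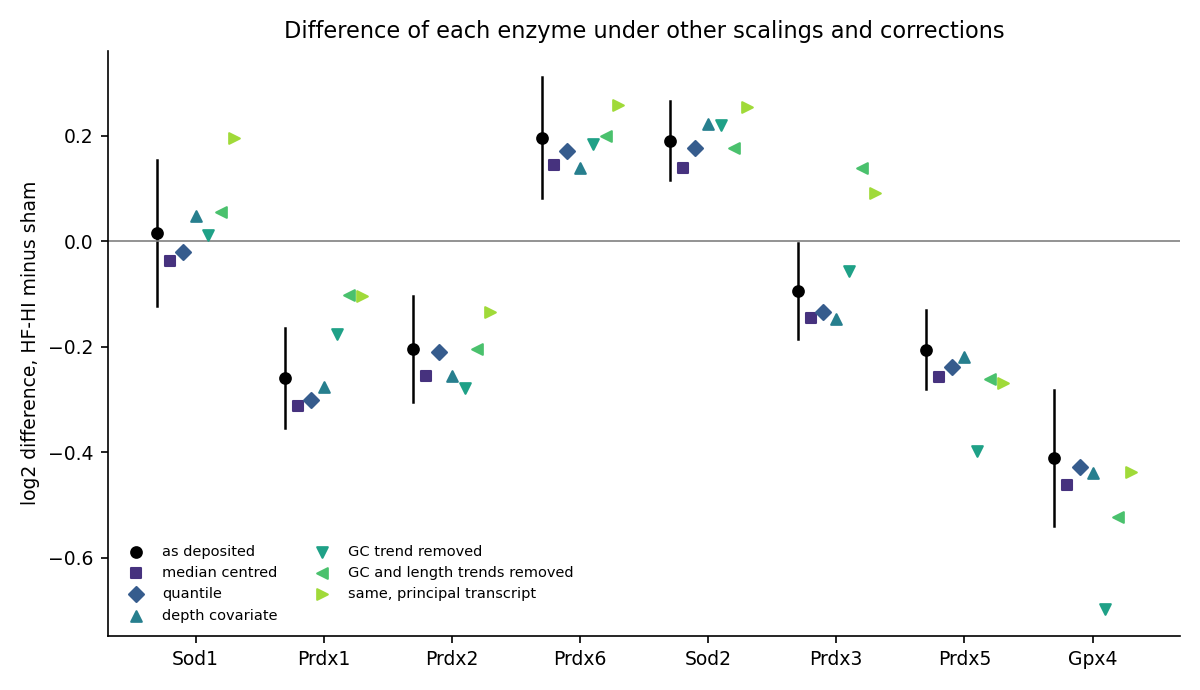
Log2 difference of each enzyme, HF-HI minus sham, as deposited (black circles, with the 95% interval) and under 3 other scalings or covariates and 3 removals of GC and length trends. Prdx1, Prdx2, Prdx5 and Gpx4 stay below 0 and Prdx6 and Sod2 above it at each point drawn, while Sod1 and Prdx3 take both signs.

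Set against each other, the compartments overlapped between groups. Of the 4 cytosolic enzymes 1 rose and 2 fell, and of the 2 mitochondrial enzymes 1 rose and 0 fell, where 32.6% of all genes were higher and 33.6% lower. After median centring 1 mitochondrial enzyme rose and 1 fell, while with GC and length trends removed 2 rose and 0 fell. With those of the principal transcript removed, 2 cytosolic enzymes rose and 2 fell. The mean of the cytosolic enzymes minus that of the mitochondrial enzymes, computed in each library as a description without a test, ran from 0.11 to 0.46 among sham mice (median 0.38) and from 0.16 to 0.32 among HF-HI mice (median 0.21). All 11 HF-HI libraries lay inside the sham range, which sham replicates 8 and 10 widened at its lower end, and all 11 lay below the sham median. The mean was 0.34 ± 0.12 for sham (SD, n = 10) and 0.22 ± 0.055 for HF-HI (SD, n = 11), a difference of -0.11, a little under the SD among sham mice and above that among HF-HI mice. With GC and length trends removed it was -0.17, beside a sham SD of 0.13 on those values, and over the 4 trend removals it ran from -0.12 to -0.20. Taken apart, HF-HI minus sham was -0.063 for the cytosolic mean and 0.048 for the mitochondrial mean, but neither direction held throughout. The mitochondrial mean was at -0.0037 after median centring, and the cytosolic mean at 0.054 with the GC and length trends of the principal transcript removed. Within the cytosol, Prdx6 and Prdx1 moved apart: Prdx6 minus Prdx1, a pair chosen after the values were seen for its opposite calls, was -0.022 ± 0.23 for sham (SD, n = 10) and 0.43 ± 0.11 for HF-HI (SD, n = 11). HF-HI replicate 9, at 0.13, was the only HF-HI library inside the sham range of that pair. The pair lay less far apart with GC and length trends removed, at 0.20 for Prdx6 and -0.10 for Prdx1, against 0.20 and -0.26 as deposited.

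**Figure D3:**
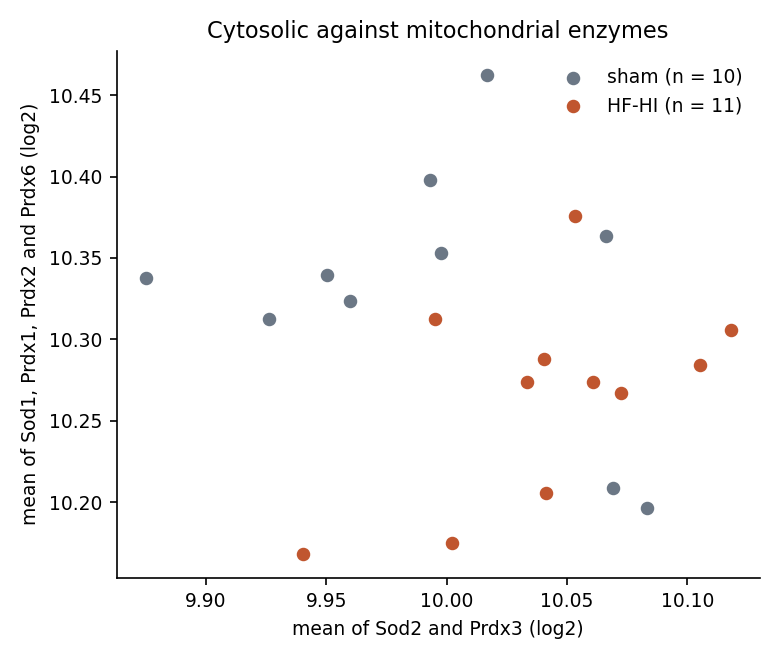
Mean log2 value of the 4 cytosolic enzymes against that of the 2 mitochondrial enzymes, each point being 1 library of 10 sham or 11 HF-HI mice. The groups overlap on both axes. On these deposited values the HF-HI mean lies -0.063 from sham on the cytosolic axis and 0.048 on the mitochondrial axis. The mitochondrial direction turns after median centring, and the cytosolic direction with the GC and length trends of the principal transcript removed.

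Across the 21 libraries, the closest profiles among the 8 were those of peroxiredoxins other than Prdx6. The root mean square difference between centred profiles was 0.103 for Prdx2 and Prdx5 and 0.104 for Prdx1 and Prdx5, all of which fell. It was then 0.127 for Prdx3 and Prdx5. Prdx6, which rose, was nearest to Sod2, which also rose, at 0.162, and lay 0.283 from Prdx1. Of other genes, the profiles nearest to the mean of the cytosolic enzymes were those of Ubb at 0.0523, Glyr1 at 0.0548, Atp6ap1, Psmc1 and Tspyl1. Those nearest to the mitochondrial mean were Snrnp200 at 0.0506, Kpnb1 at 0.0517, Miga1, Abi1 and Aldh3a2. The mean profiles themselves had an SD over the libraries of 0.0762 for the cytosolic and 0.0627 for the mitochondrial enzymes. A gene that did not vary at all would lie about that far from them. Nearness to these flat profiles thus shows little shared movement, least of all for the mitochondrial mean.

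Levels of the 8 enzymes were compared with each other only per length, as the log2 value minus log2 of the exonic length in kb. On this scale Gpx4 was the most abundant enzyme in sham, at 10.65 ± 0.19 (SD, n = 10), followed by Prdx5 at 9.22 ± 0.097 and Prdx2 at 9.16 ± 0.12 (both SD, n = 10), which did not differ beyond their spread. Prdx1 came next at 8.60 ± 0.13. The lower end held Prdx3 at 8.25 ± 0.094 and Sod1 at 8.16 ± 0.22, then Prdx6 at 7.92 ± 0.12 and Sod2 at 7.85 ± 0.098, and each of these pairs lay within its spread. In HF-HI the order was the same but for Sod1 and Prdx3, which changed places within their spread. The order depended on the length taken, most of all for Sod1. Its annotated exons span 3.97 kb together, but its principal transcript only 0.641 kb, and with the latter Sod1 stood second in both groups, at 10.79 in sham and 10.81 in HF-HI. Prdx3, whose length is 1.48 kb either way, then came last in both groups, below Sod2 and Prdx6, and Prdx2 stood above Prdx5 within their spread. With the length of the longest transcript, Prdx2 at 10.08 lay above Prdx5 at 9.45 in sham, beyond their spread, and Sod1 came last in sham. Gpx4 was first with each of these lengths.

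**Figure D4:**
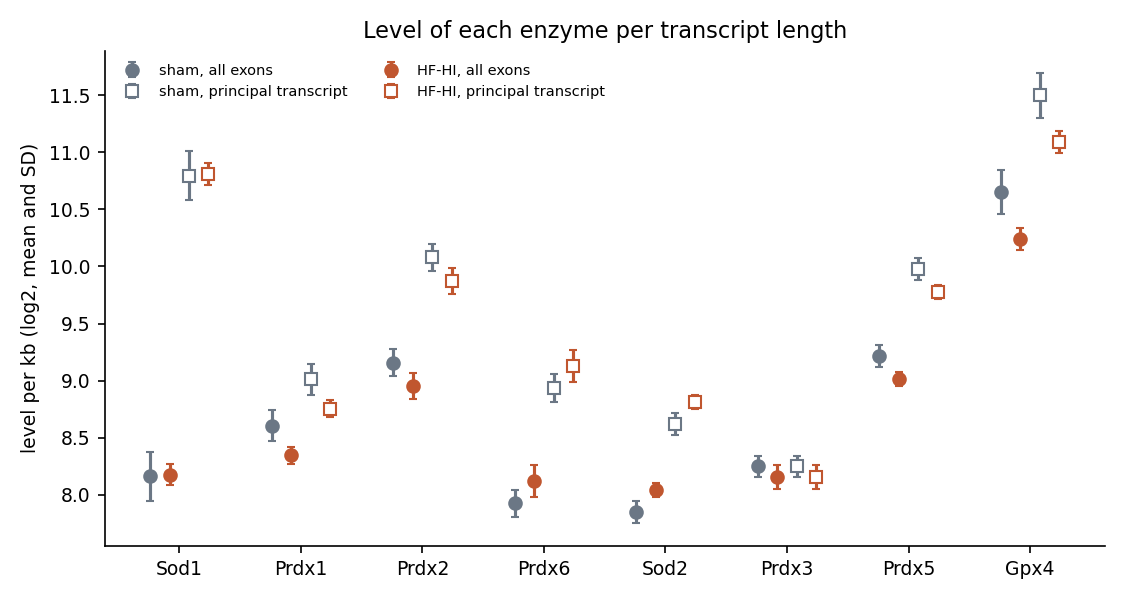
Level of each enzyme per kb, as log2 mean with SD over 10 sham and 11 HF-HI mice, with the length of all annotated exons (filled circles) or of the principal transcript (open squares). Gpx4 is highest with both lengths, and Sod1 moves from 8.16 to 10.79 in sham when the principal transcript is used.

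Promoter windows from RefSeq (GRCm38.p6), 250 bases before to 50 after a start, were found for 7 of the 8 enzymes, all but Prdx6. They were searched on both strands for TGACNNNGC, the core of the antioxidant response element bound by Nrf2, and for TGANTCA, the AP-1 motif, which can overlap it. The first was found in Prdx1 and Sod1 and in 12.4% of 32851 windows of this length. The second was found in Prdx1 and in 7.81% of windows. The windows of Prdx1, which fell without overlap, of Sod1, which did not pass the test, and of Gpx4, which had the largest fall, are shown in that order, at chr4:116685349-116685648, chr16:90220512-90220811 and chr10:80053409-80053708, each on the plus strand. Capitals mark matches to either motif, and the Gpx4 window, taken from 4 annotated starts, holds none.
Prdx1: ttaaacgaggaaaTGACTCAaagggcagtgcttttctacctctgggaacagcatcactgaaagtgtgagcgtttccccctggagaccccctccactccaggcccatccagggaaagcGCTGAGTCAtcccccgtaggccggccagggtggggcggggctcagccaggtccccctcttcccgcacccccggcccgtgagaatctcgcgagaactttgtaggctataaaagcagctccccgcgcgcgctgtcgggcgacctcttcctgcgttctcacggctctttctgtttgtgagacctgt
Sod1: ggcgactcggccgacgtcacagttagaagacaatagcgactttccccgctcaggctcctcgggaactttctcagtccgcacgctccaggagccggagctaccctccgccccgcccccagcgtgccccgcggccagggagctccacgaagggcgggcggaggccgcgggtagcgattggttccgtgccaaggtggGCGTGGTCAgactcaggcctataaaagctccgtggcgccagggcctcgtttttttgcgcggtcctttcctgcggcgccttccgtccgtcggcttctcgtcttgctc
Gpx4: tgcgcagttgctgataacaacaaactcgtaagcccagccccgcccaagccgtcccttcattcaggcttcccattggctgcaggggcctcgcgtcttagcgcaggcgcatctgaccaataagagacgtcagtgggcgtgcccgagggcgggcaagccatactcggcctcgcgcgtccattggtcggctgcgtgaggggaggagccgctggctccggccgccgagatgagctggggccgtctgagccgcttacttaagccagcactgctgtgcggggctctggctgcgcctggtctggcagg
In Prdx1 the match to the antioxidant core begins at -133 from the start and contains an AP-1 match, and a second AP-1 match begins at -237. In Sod1 the match begins at -56. The genes with a match thus include an enzyme that fell and an enzyme with no called difference, and a match of letters does not show binding.

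Other genes of the redox systems moved in both directions. Of 72 listed genes 34 were in the table, and 24 passed the test (70.6%, beside 66.3% of all genes), 11 higher and 13 lower (8 and 17 with each library centred on its median), with a median log2 difference of -0.072. Many of these calls depended on the processing or on the model fitted. There were 8 other settings, namely 2 scalings, 4 trend removals, the depth covariate and the replicate block. Replicate numbers did not pair the libraries, so a call lost with the block can come from fewer degrees of freedom alone. In each of these 8 settings 11 of the 24 kept their call and direction, or 45.8%. The share was 55.1% among the called genes with a value in each setting. Of the 10 redox genes that did not pass, 7 did so in at least 1 setting, beside 1271 of 1868 among all such genes. Among the genes of the thioredoxin and glutaredoxin system, which restores peroxiredoxins, 3 rose, 3 fell and 1 did not pass, a called share of 85.7%. Of these 6 calls 3 were kept in all 8 settings. Sesn1 and Txnl1, which were lower, and Glrx2, which was higher, named after their values were seen, lost theirs in some: Txnl1 was at -0.040 with the GC trend removed, Sesn1 at -0.057 with that of the principal transcript removed and Glrx2 at 0.094 after median centring. Txn1, the cytosolic thioredoxin, ran from 8.31 to 8.72 among sham mice (median 8.56) and from 8.68 to 9.04 among HF-HI mice (median 8.86). The ranges overlapped only at their ends. Txn1 rose by 0.33 on the log2 scale, against the fall of Prdx1 and Prdx2, which it serves (limma with Benjamini-Hochberg adjustment, adjusted p = 5.6e-06). Over the 4 trend removals the Txn1 difference ran from 0.34 to 0.57. Txnrd1, the reductase that recycles it, had a difference of 0.0033 (limma with Benjamini-Hochberg adjustment, adjusted p = 0.949). Sesn3, a stress-responsive sestrin, rose by 0.59 without overlap between groups, from 9.23 ± 0.21 (SD, n = 10) to 9.82 ± 0.088 (SD, n = 11; limma with Benjamini-Hochberg adjustment, adjusted p = 7.7e-08).

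The genes of glutathione synthesis and use included 3 that rose, 5 that fell and 4 that did not pass, a called share of 66.7% beside the 66.3% of all genes. In the same 8 settings 4 of these 8 calls were kept in each. Ggt7, one of those higher, at 0.13, turned to called lower with the GC trend removed, at -0.13, and Slc3a2, Hagh and Glo1 lost their calls in some settings, while Gclc, Gclm and Gstp1 gained one in some; these genes were named after their values were seen. Gstm1, a glutathione transferase, ran from 8.13 to 9.21 among sham mice (median 8.59) and from 9.47 to 9.81 among HF-HI mice (median 9.68). The groups did not overlap, and the sham libraries were far more spread. Its log2 difference of 1.05 was the largest among the redox genes (limma with Benjamini-Hochberg adjustment, adjusted p = 7.4e-08), while its relative Gstm5 fell by 0.44 on the log2 scale (adjusted p = 6.1e-08 from the same test). The Gstm genes are close relatives, and reads may have been split between them in the counting, so both values are uncertain. Over the 4 trend removals the Gstm5 difference ran from -0.27 to -0.52.

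Gpx1, the cytosolic glutathione peroxidase, was the only gene of the 8 other superoxide and peroxide enzymes in the table, and catalase, Prdx4 and the Sod1 copper chaperone Ccs were not in it. The log2 difference of Gpx1 was 0.053 (limma with Benjamini-Hochberg adjustment, adjusted p = 0.367). Its mean value lay above that of only 0.595% of the genes of the table, which holds few genes of lower value. Absence from the table therefore does not show that a transcript is absent from the cortex. Among the 14 genes of Nrf2 control, metal and selenium handling in the table, 5 rose, 5 fell and 4 did not pass, a called share of 71.4% beside the 66.3% of all genes. Of these 10 calls 4 were kept in all 8 settings. In at least 1 of these, 1271 of all 1868 uncalled genes passed, as did each of the 4 here, Hmox2, Mt3, Secisbp2l and Oxr1. Ncoa7, one of those lower, at -0.14, lost its call with the GC trend removed, at -0.041, and turned to called higher with the GC and length trends of the principal transcript removed, at 0.093. Oxr1 was called higher in that setting, at 0.26, and lower after median centring, at -0.14; these 5 genes were named after their values were seen. Park7, a redox-sensitive protein known from familial Parkinson disease, fell by 0.22 on the log2 scale, from 9.42 ± 0.10 (SD, n = 10) to 9.20 ± 0.13 (SD, n = 11; limma with Benjamini-Hochberg adjustment, adjusted p = 4.9e-04). Mt1, a metallothionein, rose by 0.37, from 10.20 ± 0.17 (SD, n = 10) to 10.57 ± 0.19 (SD, n = 11; limma with Benjamini-Hochberg adjustment, adjusted p = 1.2e-04). Each lost its call under 1 removal of a trend on the principal transcript, Park7 at -0.099 and Mt1 at 0.15. Keap1, which holds Nrf2 in check, was higher by 0.12 (limma with Benjamini-Hochberg adjustment, adjusted p = 0.0103), but its direction turned to -0.15 with the GC trend removed (adjusted p = 0.0205 from the same test, in a range of 0.0020 to 0.132 over 12 alternatives). Nfe2l2, the gene of Nrf2 itself, was not in the table.

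Gpx4 needs selenium, and other selenoprotein genes moved in both directions. Of 7 such genes in these lists, a grouping made after the values were seen, 2 rose, 3 fell and 2 did not pass, a called share of 71.4% beside the 66.3% of all genes. Of those that fell, Selenop and Selenot, named after their values were seen, lost their calls in each of the 4 trend removals, at -0.098 and -0.043 with the GC trend removed. Selenow rose by 0.66 on the log2 scale without overlap between the groups, from 10.74 ± 0.37 (SD, n = 10) to 11.40 ± 0.096 (SD, n = 11; limma with Benjamini-Hochberg adjustment, adjusted p = 9.0e-06). Selenof, a protein of the endoplasmic reticulum, fell by 0.37, also without overlap, from 10.67 ± 0.14 (SD, n = 10) to 10.30 ± 0.081 (SD, n = 11; limma with Benjamini-Hochberg adjustment, adjusted p = 8.6e-07). Over the 4 trend removals the Selenof difference ran from -0.18 to -0.30.

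**Figure D5:**
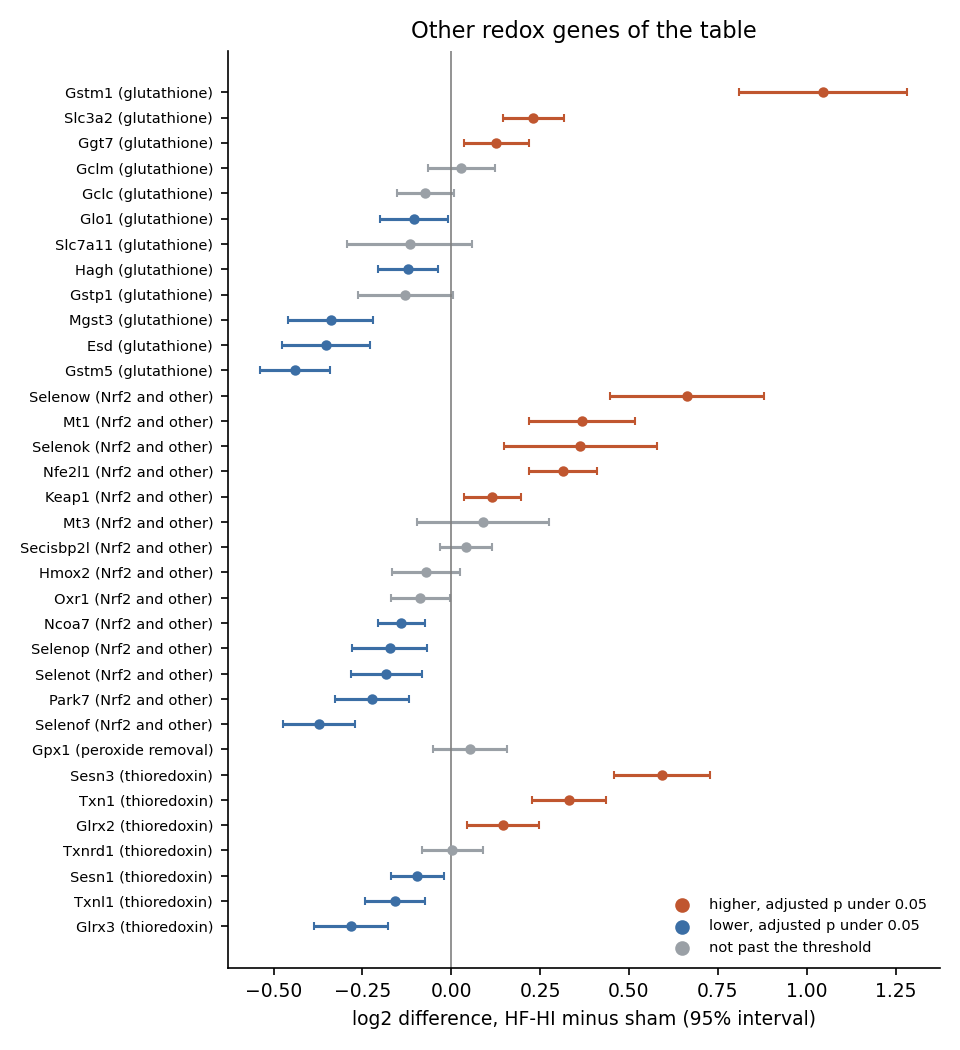
Log2 difference of the 34 other redox genes, HF-HI minus sham, with 95% intervals from limma over 10 sham and 11 HF-HI libraries, ordered by list and size. In color are the 11 genes higher and the 13 lower at an adjusted p under 0.05, and Gstm1 lies farthest out at 1.05.

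Markers of the cells in cortex were checked beside these results. All 15 neuronal markers were in the table, and 10 of them rose and 0 fell (8 and 2 after median centring), where 32.6% of all genes were higher and 33.6% lower. After median centring 1448 of the 5544 genes were higher and 2376 lower. The log2 of the summed level of the neuronal markers ran from 16.61 to 16.76 in sham and from 16.84 to 17.02 in HF-HI, without overlap. Snap25 had the highest value, not scaled for length, as for the lists that follow. Of 12 astrocyte markers 11 were in the table, 5 of which rose and 3 fell (3 and 4 after median centring), with summed levels of 16.45 to 16.54 in sham and 16.53 to 16.63 in HF-HI and Slc1a2 the highest gene. Oligodendrocyte markers, led by Mbp, had 3 that rose and 0 that fell among 10 (3 and 3 after median centring), with summed levels of 15.38 to 16.10 in sham and 15.41 to 16.08 in HF-HI.

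Endothelial markers were led by Bsg, with 3 of 10 in the table, 1 higher and 1 lower, and summed levels of 11.59 to 11.81 and 11.66 to 11.74. Blood markers showed 2 of 8 in the table and 0 called, with Hbb-bs the highest gene and summed levels of 9.34 to 10.48 in sham and 9.33 to 11.26 in HF-HI. Choroid plexus markers, led by Enpp2, had 2 of 6 in the table and 0 called, with summed levels of 11.37 to 12.87 in sham and 11.65 to 14.13 in HF-HI. The highest choroid and blood sums were both those of HF-HI replicate 3, which also had the lowest Prdx1 and Prdx3 of its group; without it the differences were -0.24 for Prdx1 and -0.078 for Prdx3. On the deposited scaling the summed neuronal level differed between the groups without overlap. Such a sum follows its most abundant genes, and 5 of the 15 neuronal markers were not called. The part of these cell types in the differences of the antioxidant enzymes was not tested.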

How the data were processed

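Cortical RNA of 21 mice, 10 sham and 11 HF-HI, was depleted of ribosomal RNA and sequenced as stranded libraries. Per the labels and the study's methods, the authors aligned reads to mm10 with STAR, counted them per transcript with eXpress and made variance-stabilized values with DESeq2. The deposited values are on a log2 scale. Read counts were not used here, which left count models aside. The versions of STAR and eXpress and the sequencing pool of each library are not given in the sources used here.

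Symbols, positions, exonic lengths and GC content came from GENCODE vM21 (GRCm38, the assembly of mm10), with a symbol for 5541 genes and GC content and length for 5539. The comparison used R 4.3.3 and limma 3.58.1, with lmFit and a trended eBayes. P-values were two-sided and adjusted by Benjamini-Hochberg over 5544 genes, with a threshold of 0.05, and the procedure was tested on simulated data. GC and length trends were removed per library with lowess curves of span 0.3. Relative depth came from values between 500 and 600 on the linear scale. Other steps used Python 3.11.15, numpy 2.4.6, pandas 2.3.3, scipy 1.17.1 and matplotlib 3.10.9.

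The genes and lists were chosen with earlier results of these data known. Named genes are the 8 enzymes, a fixed set of redox genes where in the table, the 6 redox genes past the threshold with the largest difference, the 5 nearest profiles to each compartment mean and the most abundant gene of each marker list. Other measured genes were named after their values were seen, as stated where they appear. The result of a further marker list is not reported here. Alternatives were another threshold, a minimum difference, eBayes without a trend, the Wilcoxon test, median centring, quantile normalization, the lowest quartile left out, a replicate block, GC and length trends removed, a depth covariate and each library left out. Trends and lengths of the principal transcript were added after seeing the data. Total depth being unknown, precision is given by the variation among mice; the SD of a gene within its group had a median of 0.10.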

Additional observations from a re-analysis of the deposited data

Results flagged for a closer look

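Among 20 sets of sham values examined, those of the 8 enzymes, of 11 named redox genes and of the cytosolic minus mitochondrial difference, 2 held a library far from the others, where chance gives about 1 in 20. Groups of more than 10 libraries, as HF-HI, were not examined in this way. For Gpx4, sham replicate 10 lay at 10.94 against 11.39 for the nearest sham library, a gap of 0.662 of the range, and without it the difference grew from -0.41 to -0.47. For Txnrd1, sham replicate 8 lay at 9.02 against 8.88 for the nearest, a gap of 0.555 of the range. The cause of either gap was not tested.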

How the results depend on the processing

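The 6 called enzymes kept their direction and their side of the threshold in each of 33 refits, 21 of which left out a library. Requiring a difference of at least 0.25 left 2 enzymes, 1433 genes of the table and 12 redox genes past the threshold. Sod1 was at -0.0027 with the Wilcoxon test, -0.037 after median centring, -0.021 after quantile normalization, -0.080 with the GC trend of the principal transcript removed, and 0.19 and called with its length trend also removed (limma with Benjamini-Hochberg adjustment, adjusted p = 0.0233, in a range of 0.0233 to 0.905 over 12 alternatives); with a library left out it ran from -0.025 to 0.057. Prdx3 passed after median centring (-0.15), quantile normalization (-0.13) and with the depth covariate (-0.15), and turned to 0.14 with GC and length trends removed and 0.091 with those of the principal transcript; with a library left out it ran from -0.11 to -0.077, and passed without sham replicate 5, HF-HI replicate 6 or HF-HI replicate 7. It belongs to the lowest quartile of mean value, so it has no value where that quartile is left out. Txnrd1 turned to -0.049 (median centring), -0.047 (GC removed, with or without the replicate block), -0.035 (quantile), -0.074 (GC and length), -0.029 (depth), -0.030 (principal GC) and -0.028 (principal GC and length), and ran from -0.018 to 0.024 with a library left out. Gpx1 turned to -0.030 (quantile), -0.11 (GC), -0.12 (GC with the replicate block) and -0.14 (principal GC). Keap1 turned to -0.15 (GC; GC with the replicate block), -0.13 (GC and length), -0.098 (principal GC) and -0.099 (principal GC and length). Calls were lost for Keap1 with median centring (0.064) and quantile normalization (0.081), for Park7 with principal GC and length removed (-0.099) and for Mt1 with principal GC removed (0.15). The cause was not tested.

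Levels per length, over all libraries, moved with the length of the longest transcript to 8.72 for Sod2, 8.88 for Prdx1, 9.97 for Prdx2, 9.34 for Prdx5, 8.94 for Prdx6 and 11.23 for Gpx4. With the principal transcript they were 10.80 for Sod1, 8.72 for Sod2, 8.88 for Prdx1, 9.97 for Prdx2, 9.87 for Prdx5, 9.04 for Prdx6 and 11.28 for Gpx4. The cytosolic minus mitochondrial difference moved by less than the SD pooled over both groups, 0.093, in all 30 alternatives, though in some by more than the HF-HI SD of 0.055; median centring cannot move it. It stayed negative, from -0.096 with Prdx5 and Gpx4 counted in to -0.20 with principal GC removed; with a library left out it ran from -0.097 to -0.14, the latter without sham replicate 8. Median centring gave 1448 higher and 2376 lower genes against 1810 and 1864, so that higher genes made up 37.9% of those called and not 49.3%; quantile normalization gave 40.8%, and the minimum difference 68.9%. Of the redox genes called, 45.8% were higher, 32.0% after either scaling, 58.3% with the minimum difference and 63.2% with principal GC and length removed. In 8 settings of scaling, trend removal, depth and replicate block, 11 of the 24 redox genes called kept call and direction in each. Of the 24, 3, Ggt7, Keap1 and Ncoa7, turned to a call in the other direction in at least 1, beside 81 of 3671 among all called genes. Replicate numbers did not pair the libraries: their correlations ran from -0.31 to 0.36, and 0 of 10 sham libraries matched best with their own number. With the replicate block 6 enzymes, 3498 genes and 21 redox genes passed.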
